A study of Arabidopsis thaliana with 58 samples.

Results

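The genes described here were 10 Arabidopsis thaliana loci of the EDS1-PAD4 immune node and of pipecolic acid metabolism. The loci were taken from a list that was chosen with earlier results of these data known. They were 10 of the 23898 genes that had a row in any of the 7 tables of the study. The EDS1-PAD4 node was represented by 5 genes (EDS1, PAD4, SAG101, ADR1 and ADR1-L1). Pipecolic acid metabolism was represented by 4 genes (ALD1, SARD4, FMO1 and UGT76B1), and PNP-A, which encodes a secreted peptide, was the tenth. All 10 had a row in every table.

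Wild-type Col-0 plants were grown hydroponically. Mg-deficient plants were moved to a solution with 0 mM Mg at the age of 10 days, while control plants stayed at 1.5 mM Mg. Mature leaves (the first pair of rosette leaves) and expanding leaves (the next pair) were sampled on days 3, 5 and 8 of treatment, at ages of 13, 15 and 18 days, and roots were sampled on day 3. RNA of 2 to 3 plants was combined in each library, and 58 libraries were sequenced as 50-base single-end reads. Mature leaves gave 3 Mg-deficient against 4 control libraries (day 3), 3 against 5 (day 5) and 4 against 4 (day 8). Expanding leaves gave 4 against 5 (day 3), 3 against 5 (day 5) and 5 against 4 (day 8), and roots gave 3 against 6. No mutant of any of these genes was included, and all plants were of 1 genotype. In the Mg-free solution the study put sodium sulphate in the place of magnesium sulphate, so all Mg-deficient libraries share a higher sodium supply, which cannot be told apart from the lack of Mg.

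The libraries held 545998 to 4015183 reads (median 1964031). Values are the deposited normalised read counts, called signals here, which were scaled to a common library size within each tissue and day. Log2 fold changes are of Mg-deficient over control libraries, on the scale of log2(signal + 1), which understates the change of low genes. They were tested with limma, leaving out genes whose signal averaged under 5, and a gene was called when its Benjamini-Hochberg adjusted p was under 0.05. The scaling leaves small signals where no read was counted, such as 0.382 for ALD1 in control library 2 of mature leaves on day 8. The p-values measure the spread between pooled-plant libraries. Whether leaves of different age came from the same plants was not given. Depth was uneven on day 8 in mature leaves, where 12546 to 17104 genes had a read in the Mg-deficient libraries and 6908 to 14619 in the control libraries. It was also uneven on day 8 in expanding leaves, where 18422 to 18718 genes had a read in the Mg-deficient libraries (1907297 to 2585130 reads) and 12275 to 15172 in the control libraries (1365813 to 1974505 reads). On day 5 in expanding leaves, Mg-deficient library 1 stood apart. It had the fewest genes with a read there (12656), a summed signal of 5 mesophyll markers of 33050 against 103300 and 104000 in the other Mg-deficient libraries and 75650 to 99050 in the controls, and a summed signal of 5 senescence markers of 1342, against 419 and 399.4 in the other Mg-deficient libraries and 4.45 to 16.8 in the controls. In leaf libraries the root markers were at or near 0. In these bulk samples, fewer cells of a type and less RNA per cell cannot be told apart.

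EDS1 is a lipase-like protein that forms alternative pairs with its relatives PAD4 and SAG101. These pairs pass on signals from immune receptors with a TIR domain to helper receptors, among them ADR1 and ADR1-L1, and the node drives the accumulation of salicylic acid and the local and systemic defence of leaves. Pipecolic acid is made from lysine by the aminotransferase ALD1 and the reductase SARD4. The monooxygenase FMO1 turns it into N-hydroxypipecolic acid, a mobile signal of systemic acquired resistance, and the glycosyltransferase UGT76B1 attaches sugar to that product and to salicylic acid.

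The 4 loci with the largest fold changes on days 5 and 8 are shown first by the 250 bases before their annotated start, together with EDS1, the name-giving gene of the node. The windows were read from the RefSeq TAIR10.1 assembly and are printed 5′ to 3′ on the strand of the gene. Capitals mark the letters TTGAC, the core of the W-box that WRKY factors bind, or its reverse complement GTCAA.
ALD1 (chr2:5768167-5768416, plus strand): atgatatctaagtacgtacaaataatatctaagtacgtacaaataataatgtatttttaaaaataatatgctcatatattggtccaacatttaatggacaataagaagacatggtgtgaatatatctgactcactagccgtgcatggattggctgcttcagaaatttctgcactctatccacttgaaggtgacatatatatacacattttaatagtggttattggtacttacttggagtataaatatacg
FMO1 (chr1:6653196-6653445, minus strand): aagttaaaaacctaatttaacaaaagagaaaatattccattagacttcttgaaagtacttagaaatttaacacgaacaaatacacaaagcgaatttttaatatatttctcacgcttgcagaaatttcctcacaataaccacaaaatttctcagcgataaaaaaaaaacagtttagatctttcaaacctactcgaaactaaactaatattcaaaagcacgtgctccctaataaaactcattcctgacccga
UGT76B1 (chr3:3556304-3556553, plus strand): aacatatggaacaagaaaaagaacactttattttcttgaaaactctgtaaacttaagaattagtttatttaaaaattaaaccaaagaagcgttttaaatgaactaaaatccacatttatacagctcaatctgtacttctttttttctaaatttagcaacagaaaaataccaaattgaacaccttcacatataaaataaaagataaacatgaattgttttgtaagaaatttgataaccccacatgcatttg
PNP-A (chr2:8091737-8091986, minus strand): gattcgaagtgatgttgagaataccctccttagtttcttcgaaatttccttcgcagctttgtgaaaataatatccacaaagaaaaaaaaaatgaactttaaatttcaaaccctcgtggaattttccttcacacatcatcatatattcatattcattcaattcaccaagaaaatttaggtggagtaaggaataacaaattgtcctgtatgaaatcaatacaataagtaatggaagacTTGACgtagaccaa
EDS1 (chr3:17758148-17758397, minus strand): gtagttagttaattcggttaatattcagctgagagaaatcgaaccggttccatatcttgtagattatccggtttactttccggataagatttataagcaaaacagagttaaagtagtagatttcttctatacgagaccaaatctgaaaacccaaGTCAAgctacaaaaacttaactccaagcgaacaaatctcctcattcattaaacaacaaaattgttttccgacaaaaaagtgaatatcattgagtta
In the windows of all 10 loci, TTGAC was found on either strand in 4, those of EDS1, SAG101, SARD4 and PNP-A. SARD4 held it at 2 positions. It was found in 44.9% of 27443 gene windows of the same length. The TGACG core, which TGA factors bind and which can overlap TTGAC, was found in PNP-A only, inside the same stretch, and in 18.6% of all windows. The letters CGCGT, the core of the CGCG box, were in none of the 10 and in 6.9% of all windows. A match in letters was not tested for binding.

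The 10 genes are spread over all chromosomes. EDS1 (AT3G48090) is at chr3:17755329-17758147, PAD4 (AT3G52430) at chr3:19431095-19434450 and UGT76B1 (AT3G11340) at chr3:3556554-3558361. SAG101 (AT5G14930) is at chr5:4828499-4830982 and SARD4 (AT5G52810) at chr5:21399331-21400686. ADR1 (AT1G33560) is at chr1:12168768-12172119 and FMO1 (AT1G19250) at chr1:6650476-6653195. ALD1 (AT2G13810) is at chr2:5768417-5772266, PNP-A (AT2G18660) at chr2:8089411-8091736 and ADR1-L1 (AT4G33300) at chr4:16050456-16056526. EDS1, ADR1-L1, FMO1 and PNP-A are on the minus strand, and the others on the plus strand. EDS1 shares 23 of its 2502 exonic 50-base windows with AT3G48080, a near copy 138 bases away, SARD4 shares 40 of 1307 with the overlapping AT5G52800, and ADR1-L1 overlaps AT4G08785, AT4G33290 and AT4G33310. Whether the counting used strand or dropped reads with several matches was not given, so the values of these 3 genes may hold some reads of their neighbours.

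In expanding leaves on day 8, all 10 genes were up-regulated by Mg deficiency. Their median log2 fold change was 4.60, against 0.63 over all 15523 genes tested. Of all genes tested there, 30.8% rose. All 5 Mg-deficient libraries lay above all 4 control libraries for each of the 10, which was so for 26.1% of all genes. On day 5 in the same leaves 8 of the 10 rose, when 13.7% of all 15570 genes did, and the members' median was 3.19 against -0.34 over all genes. The groups were apart on that day for 9 of the 10, all but ADR1-L1, as for 16.1% of all genes. Genes of no control read lay above these medians both as fitted and at the lower bound of their fold change. Setting them at that bound could therefore not move either median. On day 3 only PNP-A rose, 1 of the 7 members above the filter, when 0.170% of all 15272 genes rose.

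**Figure D1:**
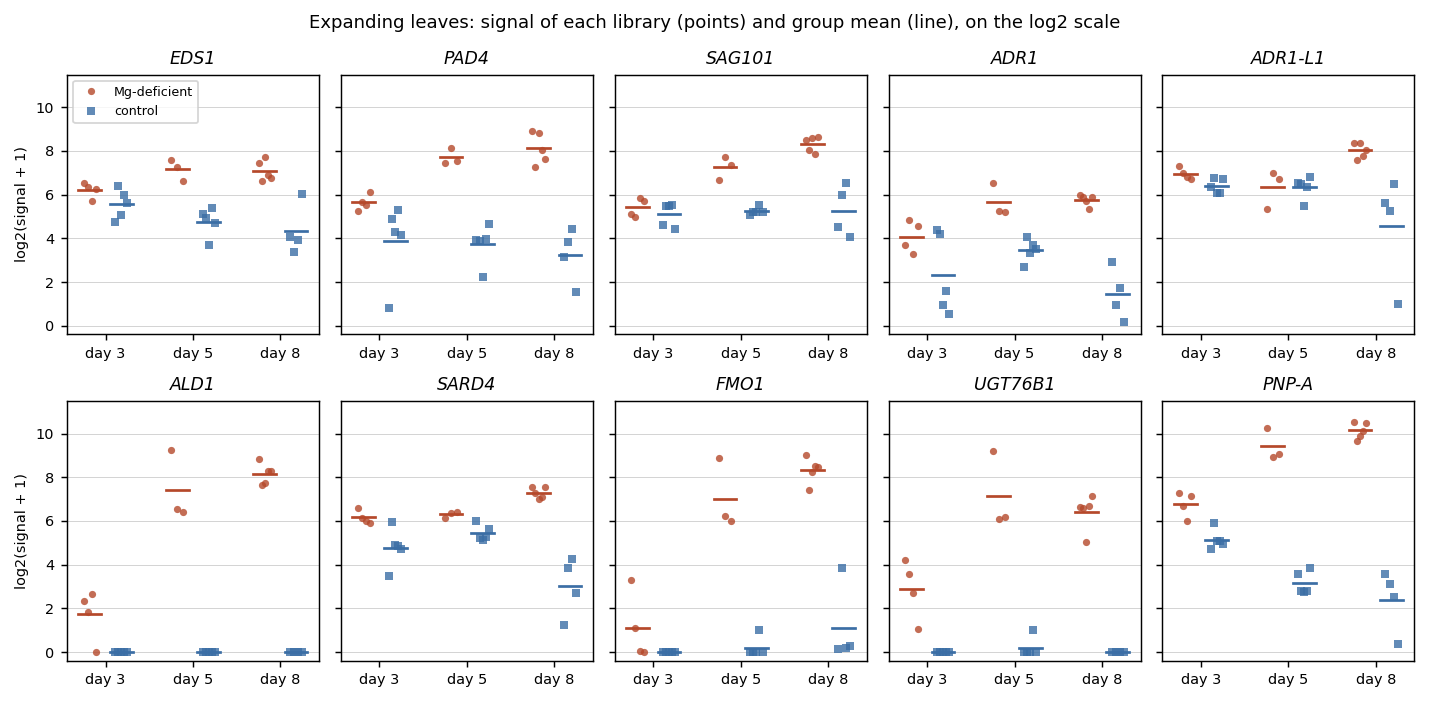
Signal of each of the 10 genes in every expanding-leaf library on days 3, 5 and 8, on a log axis of signal + 1, with Mg-deficient libraries left of control libraries of the same day and each point 1 library. On day 8 the Mg-deficient points lay above all control points in all 10 genes.

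Of the node genes, PAD4 had the largest response on day 5. It had signals of 175, 284 and 186 in Mg-deficient expanding leaves, against 14.0, 13.7, 3.73, 14.8 and 23.9 in control leaves. The groups did not overlap, and the log2 fold change was 3.99 ± 0.51 (SE; limma adjusted p = 0.00042). On day 8 PAD4 had signals of 477, 154, 446, 261 and 199 in Mg-deficient leaves, against 7.96, 13.4, 20.4 and 1.90 in control leaves. The log2 fold change was 4.89 ± 0.55 (adjusted p = 1.9e-05 by limma), and the lowest Mg-deficient library still lay above the highest control library.

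EDS1, the shared partner of the node, had signals of 191, 153 and 98.4 in Mg-deficient expanding leaves on day 5, against 33.3, 29.1, 12, 41.5 and 25.1 in control leaves. It rose by 2.40 ± 0.42 on the log2 scale (adjusted p = 0.0025 by limma), with no overlap. On day 8 it had 174, 98.6, 212, 118 and 109 in Mg-deficient leaves, against 15.9, 9.38, 14.3 and 64.9 in control leaves. Control library 4 was the high one of its group, and the log2 fold change was 2.74 ± 0.49 (adjusted p = 0.00063 by limma).

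SAG101, the alternative partner of EDS1, had signals of 101, 213 and 165 in Mg-deficient expanding leaves on day 5, against 32.4, 36.0, 35.7, 45.5 and 35.5 in control leaves. It rose by 2.02 ± 0.31 on the log2 scale (adjusted p = 0.0011 by limma) on day 5. On day 8 its signals were 358, 261, 391, 232 and 403 in Mg-deficient leaves, against 21.7, 62.0, 92.0 and 15.5 in control leaves. The groups were apart on both days, and the day 8 log2 fold change was 3.07 ± 0.46 (adjusted p = 0.00016 by limma).

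Of the helper receptor genes, ADR1 was called on day 5 and ADR1-L1 was not, a difference between genes that was not tested. ADR1 had signals of 91.8, 37.2 and 36.0 in Mg-deficient expanding leaves on day 5, against 5.50, 15.7, 9.05, 11.9 and 10.4 in control leaves, a log2 fold change of 2.21 ± 0.51 (adjusted p = 0.0099 by limma). ADR1-L1 had 40.0, 126 and 105 in Mg-deficient leaves, against 90.4, 90.0, 44.3, 81.0 and 110 in control leaves. Those groups overlapped, with a log2 fold change of 0.03 ± 0.42 (adjusted p = 0.97 by limma), and Mg-deficient library 1 was its lowest value. On day 8 both were up-regulated. ADR1 had 62.0, 58.8, 50.5, 40.2 and 58.0 in Mg-deficient leaves, against 6.50, 0.921, 2.35 and 0.141 in control leaves (log2 fold change 4.32 ± 0.60, adjusted p = 9.6e-05 by limma). ADR1-L1 had 332, 189, 328, 215 and 265 in Mg-deficient leaves, against 48.1, 37.1, 88.4 and 0.972 in control leaves (log2 fold change 3.44 ± 0.85, adjusted p = 0.0053 by limma). No Mg-deficient library overlapped a control library for either gene on day 8.

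ALD1, the entry enzyme of pipecolic acid synthesis, had no read in any of the 5 control libraries of expanding leaves on day 5. The Mg-deficient libraries had 506, 88 and 87 reads of it (signals 616, 93.6 and 84.7). Over the group this was at least 440-fold higher than a floor of 3 reads over all control libraries, and at least 151-fold higher without Mg-deficient library 1. The fitted log2 fold change was 7.42 ± 0.72 (adjusted p = 7.1e-05 by limma), a value that depends on the added 1. On day 8 the signals were 452, 200, 213, 316 and 314 in Mg-deficient leaves, again with no read in the 4 control libraries, which was at least 311-fold higher (adjusted p = 5.4e-08 by limma). These bounds cover counting error only.

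SARD4, the reductase that acts after ALD1, was already read in control leaves. It had signals of 69.9, 82.7 and 84.8 in Mg-deficient expanding leaves on day 5, against 62.2, 36.7, 33.8, 37.5 and 48.0 in control leaves. The groups did not overlap, but the log2 fold change of 0.87 ± 0.30 missed the threshold (adjusted p = 0.051 by limma). Without Mg-deficient library 1 the adjusted p was 0.03. On day 8 its signals were 188, 152, 128, 136 and 186 in Mg-deficient leaves, against 1.35, 13.4, 18.1 and 5.59 in control leaves. SARD4 then rose by 4.28 ± 0.54 on the log2 scale (adjusted p = 4.6e-05 by limma), with groups far apart.

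FMO1, which makes N-hydroxypipecolic acid, had signals of 464, 73.5 and 63.2 in Mg-deficient expanding leaves on day 5, and 1 read in 1 of the 5 control libraries. The ratio of reads, scaled by library size, was 1000, with a 95% counting interval of 179 to 39570, and 346 (61.1 to 13770) without Mg-deficient library 1. The fitted log2 fold change was 6.83 ± 0.74 (adjusted p = 0.00016 by limma). On day 8 it had 512, 172, 300, 360 and 358 in Mg-deficient leaves, and among the controls only library 2 held reads of it, 14 in number (signal 13.6). The log2 fold change was 7.23 ± 0.72 (adjusted p = 7.8e-06 by limma).

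UGT76B1, which glycosylates N-hydroxypipecolic acid, had signals of 584, 66.1 and 72.0 in Mg-deficient expanding leaves on day 5, and 1 read in 1 of the 5 control libraries. The ratio of reads, scaled by library size, was 1194 (95% counting interval 214 to 47230), and 351 (62.0 to 13970) without Mg-deficient library 1. On day 8 its signals were 98.0, 96.7, 32.3, 103 and 142 in Mg-deficient leaves, with no read in the 4 control libraries, at least 97.7-fold higher. Limma gave adjusted p = 0.00019 on day 5 and 3e-06 on day 8. Within the Mg-deficient group of day 5, library 1 held the most signal of ALD1, FMO1 and UGT76B1, and the other 2 libraries lay close to each other.

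PNP-A, the gene of a small secreted peptide related to expansins, had signals of 1241, 492 and 541 in Mg-deficient expanding leaves on day 5, against 10.7, 5.87, 5.66, 5.92 and 13.5 in control leaves. It rose by 6.29 ± 0.43 on the log2 scale (adjusted p = 7.8e-06 by limma). On day 8 it had 1498, 808, 954, 1103 and 1447 in Mg-deficient leaves, against 11, 7.64, 4.75 and 0.302 in control leaves, a log2 fold change of 7.74 ± 0.53 (adjusted p = 5.2e-07 by limma). It had the highest signal of the 10 genes in every Mg-deficient expanding-leaf library of these days. Signals are not scaled for gene length, so this order is of reads and not of transcripts.

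On day 3 PNP-A was the one member called in expanding leaves. Its signals were 157, 103, 63.8 and 141 in Mg-deficient leaves, against 25.7, 58.6, 32.4, 32.8 and 29.4 in control leaves. The groups were apart, as for 1.80% of all genes, by a narrow margin, with Mg-deficient library 3 and control library 2 nearest to each other, and the log2 fold change was 1.65 ± 0.31 (adjusted p = 0.019 by limma). Without Mg-deficient library 1 the adjusted p was 0.18, and without library 2 it was 0.085.

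The other 6 members above the filter on day 3 in expanding leaves were not called. SARD4 had signals of 95.2, 70.2, 62.5 and 59.1 in Mg-deficient leaves, against 10.3, 61.5, 28.4, 27.8 and 25.2 in control leaves (log2 fold change 1.38 ± 0.38, adjusted p = 0.19 by limma). PAD4 had 37.7, 50.0, 45.3 and 68.2 in Mg-deficient leaves, against 0.736, 28.3, 18.6, 37.8 and 16.9 in control leaves (1.77 ± 0.61, adjusted p = 0.39 by limma). In both genes 1 control library reached into the range of the Mg-deficient libraries. EDS1, SAG101, ADR1 and ADR1-L1 had log2 fold changes of 0.65, 0.32, 1.76 and 0.56, and the smallest of their adjusted p was 0.54 by limma. ALD1, FMO1 and UGT76B1 were below the filter and had no read in the 5 control libraries. In the 4 Mg-deficient libraries ALD1 had 5, 4, 5 and 0 reads, FMO1 10, 2, 0 and 0, and UGT76B1 21, 16, 5 and 1. Against the floor of 3 reads over the control group these sums were at least 4.84-fold, 4.15-fold and 14.9-fold higher. Most of the reads of FMO1 came from 1 library.

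**Figure D2:**
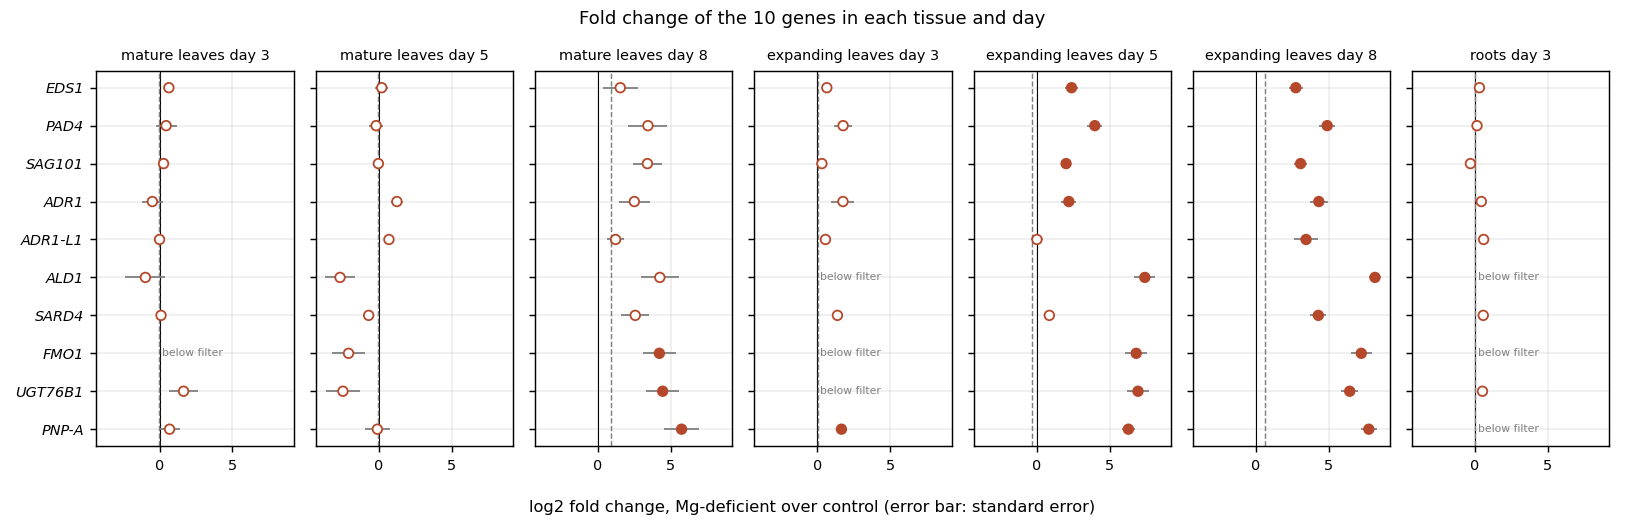
Log2 fold change of each gene in each tissue and day (Mg-deficient over control, on the scale of log2(signal + 1)) with bars of 1 standard error of the limma fit, filled where the adjusted p was under 0.05. The filled points lie in expanding leaves on days 5 (8 genes) and 8 (10 genes), with 3 in mature leaves on day 8 and 1 in expanding leaves on day 3.

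Marker genes of some cell types moved with these responses. In expanding leaves on day 8 all 5 mesophyll markers fell, with summed signals of 12760 to 23720 in Mg-deficient leaves and 59730 to 76620 in control leaves. Of 6 vascular markers 3 fell, SUC2, SWEET11 and SWEET12. The summed signal of the 6 was 238 to 333 in Mg-deficient leaves and 756 to 912 in control leaves. The other 3 had positive values. APL had 0.25 ± 0.36 and XCP1 2.13 ± 0.84, neither called. IRX3, below the filter, had 2.63 ± 0.50 with no filter (adjusted p = 0.0011 by limma). Of 5 senescence markers SAG13, ORE1 and WRKY53 rose, NAP was not called and SAG12 had no row. The summed signal of the list was 703 to 1671 in Mg-deficient leaves, mostly SAG13 (mean 1178), and 0 to 23.3 in control leaves. In expanding leaves on day 5, 1 of the 5 mesophyll markers fell (CA1, -1.99 ± 0.44, adjusted p = 0.008 by limma) and 1 rose (LHCA4, 0.95 ± 0.26, adjusted p = 0.021 by limma), and their sum was mostly RBCS1A, which had -0.12 ± 0.65. Of the 6 vascular markers SWEET12 fell (-1.24 ± 0.25, adjusted p = 0.0055 by limma), with sums of 342 to 680 in Mg-deficient leaves and 728 to 818 in control leaves. Of the senescence markers SAG13 and WRKY53 rose on day 5. NAP was not called (2.97 ± 1.19, adjusted p = 0.082 by limma), ORE1 was below the filter and SAG12 had no row. The sums were 399.4 to 1342 in Mg-deficient leaves, mostly SAG13 (mean 601), and 4.45 to 16.8 in control leaves. Of 5 guard-cell markers none was called on day 5 or 8. Their day 8 sums were 82.9 to 100 in Mg-deficient leaves and 108 to 198 in control leaves. On day 3 no marker of any list was called, when 0.170% of all genes rose. The day 3 vascular sums were apart, at 304 to 360 in Mg-deficient leaves and 424 to 529 in control leaves, and those of the other lists overlapped. The part of these markers in the responses of the 10 genes was not tested.

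In mature leaves no member was called before day 8. On day 3 none of the 9 members above the filter was called, when 0% of all 15079 genes rose or fell. At an unadjusted p under 0.05 the count was 0 members and 493 genes, and voom on recovered reads called 0 members. The log2 fold changes of EDS1, PAD4 and SAG101 were 0.64, 0.45 and 0.28, those of ADR1 and ADR1-L1 were -0.49 and 0.00, and those of ALD1, SARD4, UGT76B1 and PNP-A were -0.97, 0.10, 1.65 and 0.69. FMO1 was below the filter.

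On day 5 in mature leaves none of the 10 was called, when again 0% of all 15243 genes rose or fell. At an unadjusted p under 0.05 there were 4 members and 1060 genes, and voom called 0 members. ALD1 had signals of 2.20, 0 and 0.005 in Mg-deficient mature leaves, against 0.926, 8.94, 8.59, 21.4 and 15.9 in control leaves (log2 fold change -2.66 ± 1.05, adjusted p = 0.68 by limma). UGT76B1 had 0.044, 0 and 4.08 in Mg-deficient leaves, against 0, 20.9, 21.2, 14.9 and 9.45 in control leaves (-2.46 ± 1.14, adjusted p = 0.71 by limma). FMO1 had 0.073, 5.29 and 1.05 in Mg-deficient leaves, against 0, 10.9, 7.64, 42.2 and 22.5 in control leaves (-2.07 ± 1.13, adjusted p = 0.75 by limma). In all of these the fold change was negative, and control library 1, which held little or nothing of them, overlapped the Mg-deficient libraries. The summed signal of the senescence markers was 64.4, 133.2 and 103.1 in the Mg-deficient libraries, against 23.2, 150.0, 100.2, 324.3 and 387.9 in the control libraries. Control libraries 4 and 5 were thus the high ones for these markers and for ALD1 and FMO1, and the part of the markers was not tested. PNP-A had 65.0, 86.1 and 91.8 in Mg-deficient leaves, against 5.74, 68.5, 115, 228 and 394 in control leaves, and the control range enclosed the Mg-deficient one. ADR1 was the one member whose groups did not overlap, as for 2.24% of all genes, with 51.9, 46.4 and 39.2 in Mg-deficient leaves, against 23.5, 14.9, 26.1, 17.3 and 14.4 in control leaves (1.24 ± 0.43, adjusted p = 0.63 by limma). ADR1-L1 had a log2 fold change of 0.70 ± 0.29 (adjusted p = 0.69 by limma), and EDS1, PAD4, SAG101 and SARD4 had 0.20, -0.18, -0.03 and -0.69.

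On day 8 in mature leaves FMO1, UGT76B1 and PNP-A rose, 3 of the 10, when 3.43% of all 13314 genes rose. The members' median log2 fold change was 3.40, against 0.91 over all genes, of which 76.5% had a positive value. Against control library 1 alone, the control with the most genes read (14619), the median over all genes was -0.08. FMO1 had signals of 3.18, 22.4, 10.3 and 103 in Mg-deficient mature leaves and no read in the 4 control libraries, at least 48.4-fold higher than the floor and at least 12.6-fold higher without Mg-deficient library 4 (adjusted p = 0.038 by limma). UGT76B1 had 26.7, 14.9, 6.14 and 67.3 in Mg-deficient leaves and no read in control leaves, at least 36.4-fold higher and at least 15.5-fold higher without Mg-deficient library 4 (adjusted p = 0.029 by limma). PNP-A had 100, 27.1, 170 and 540 in Mg-deficient leaves, against 15.3, 0.398, 0.448 and 0.027 in control leaves (log2 fold change 5.72 ± 1.17, adjusted p = 0.0079 by limma). Mg-deficient library 4 was the high one for all of them. These were the members whose groups did not overlap, as for 9.56% of all genes.

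The count of 3 changed when single libraries were left out. Without Mg-deficient library 4 it was 0, with log2 fold changes of 3.37 for FMO1, 3.87 for UGT76B1 and 5.03 for PNP-A. Without control library 1 it was 6. Of all genes, 56 rose without Mg-deficient library 4 and 1700 without control library 1, against 457 with all libraries. Without Mg-deficient library 3, control library 2 or control library 3 the member count was 1, when 101, 132 and 124 of all genes rose. There the log2 fold changes were 4.44, 4.2 and 4.2 for FMO1 and 4.96, 4.43 and 4.43 for UGT76B1, against 4.2 and 4.43 with all libraries. No control library held a read of either gene, so leaving out a control could not change these values. Why these calls were lost was not tested. Without control library 4 both FMO1 (adjusted p = 0.074 by limma) and UGT76B1 (0.054) lost their calls too, while SAG101 was called (0.026). Without Mg-deficient library 1 UGT76B1 lost its call (adjusted p = 0.054 by limma). With all libraries FMO1 also lost its call with a pseudocount of 5 (adjusted p = 0.076), no filter (0.064) or array weights (0.08), and UGT76B1 with a pseudocount of 5 (0.054) or array weights (0.071), all by limma.

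The other 7 members had positive fold changes in mature leaves on day 8 and were not called. ALD1 had signals of 14.3, 52.8, 20.6 and 221 in Mg-deficient mature leaves, against 14.6, 0.382, 0.43 and 0.026 in control leaves, where library 1 held all 19 control reads (4.23 ± 1.3, adjusted p = 0.06 by limma). SAG101 had 74.2, 56.3, 92.4 and 178 in Mg-deficient leaves, against 19.8, 1.15, 1.31 and 58.3 in control leaves (3.38 ± 1.02, adjusted p = 0.056 by limma). In both genes 1 control library reached the lowest Mg-deficient one. PAD4 had 41.3, 3.42, 41.8 and 98.9 in Mg-deficient leaves, against 22.8, 0.543, 0.611 and 0.036 in control leaves (3.42 ± 1.34, adjusted p = 0.15 by limma). SARD4, ADR1, EDS1 and ADR1-L1 had log2 fold changes of 2.55, 2.49, 1.52 and 1.2, with adjusted p of 0.14, 0.18, 0.5 and 0.24 by limma. Here 4 of 5 senescence markers rose (summed signal 195 to 989 in Mg-deficient leaves, 4.17 to 136 in control leaves) and 1 mesophyll marker fell, and their part in these values was not tested.

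In roots on day 3 none of the 7 members above the filter was called, when 0.0887% of all 16905 genes rose and 0.112% fell. At an unadjusted p under 0.05 there were 2 members and 1848 genes, and voom called 0 members. UGT76B1 had signals of 109, 139 and 84.5 in Mg-deficient roots, against 83.3, 82.3, 76.8, 68.0, 69.1 and 79.9 in control roots. The groups did not overlap, as for 2.53% of all genes, with a narrow margin between the lowest Mg-deficient and the highest control library, and the log2 fold change was 0.51 ± 0.18 (adjusted p = 0.3 by limma). ADR1-L1 had 0.58 ± 0.23 (adjusted p = 0.35 by limma) and SARD4 0.56 ± 0.32 (adjusted p = 0.52 by limma). EDS1, PAD4, SAG101 and ADR1 had 0.30, 0.13, -0.32 and 0.43. ALD1, FMO1 and PNP-A were below the filter. PNP-A had 1, 20 and 0 reads in Mg-deficient roots and 1, 1, 1, 0, 0 and 0 in control roots, a ratio of 13.3 with a 95% counting interval of 3.97 to 69.6 that rests on 1 library.

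**Figure D3:**
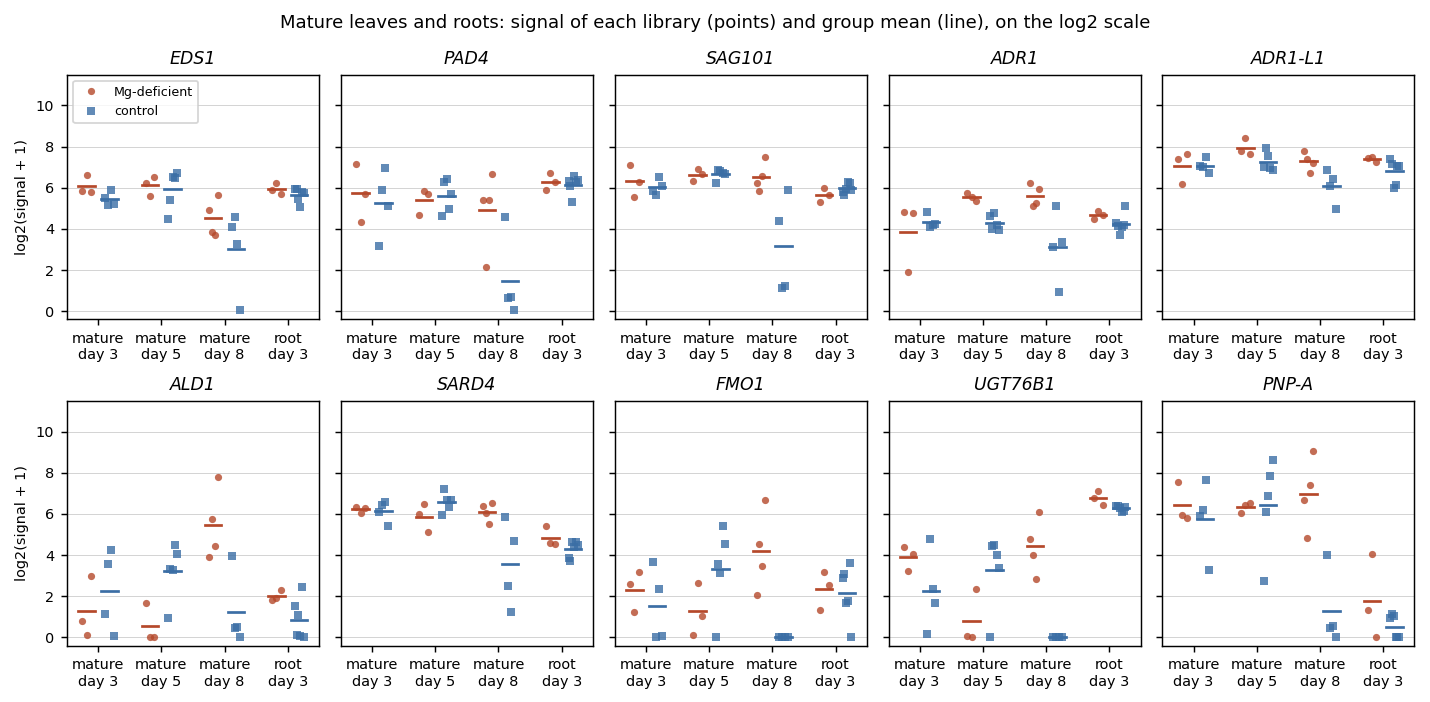
Signal of each of the 10 genes in every library of mature leaves (days 3, 5 and 8) and roots (day 3), on a log axis of signal + 1, with Mg-deficient libraries left of control libraries and each point 1 library. On day 5 in mature leaves the control range of PNP-A enclosed the Mg-deficient one, and in roots UGT76B1 was the member whose groups were apart among those above the filter.

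UGT76B1 was the pipecolic acid gene with the clearest root level. Its level averaged 54.8 ± 15.4 RPM (reads scaled to library size) in Mg-deficient roots and 36.3 ± 3.14 in control roots (SD, n = 3 and 6). In leaves it averaged 46.7 ± 19.1 in Mg-deficient expanding leaves on day 8, with no read in their controls (SD, n = 5), and 24.9 ± 22.6 in Mg-deficient mature leaves on day 8, with no read in their controls (SD, n = 4). The absence of reads in control expanding leaves on day 8 allows up to 0.469 RPM over the group. Control roots thus held more reads of the gene than any control leaf group, the highest of which was mature leaves on day 5 at 6.81 ± 4.45 RPM (SD, n = 5).

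The response in expanding leaves was next set against that in mature leaves of the same day, by subtracting one log2 fold change from the other, with p adjusted over all genes tested in both tables. On day 5 it was larger in expanding leaves for 8 of the 10, as for 9.96% of 14522 genes. The differences were 10.07 for ALD1 (adjusted p = 2.9e-06), 9.41 for UGT76B1 (2.7e-05), 8.90 for FMO1 (4.3e-05) and 6.39 for PNP-A (4e-05), all from limma fits. For the node they were 4.17 for PAD4 (adjusted p = 0.00014), 2.20 for EDS1 (0.014) and 2.05 for SAG101 (0.0011), and for SARD4 1.57 (0.018), from the same limma fits. Without Mg-deficient library 3 of mature leaves the difference of SARD4 was 1.2 (adjusted p = 0.07). ADR1 had a difference of 0.97 with a 95% interval of -0.41 to 2.34, and ADR1-L1 one of -0.67 with an interval of -1.73 to 0.39, neither past the threshold. The negative mature-leaf values of ALD1, FMO1 and UGT76B1, none called, add to their differences.

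**Figure D4:**
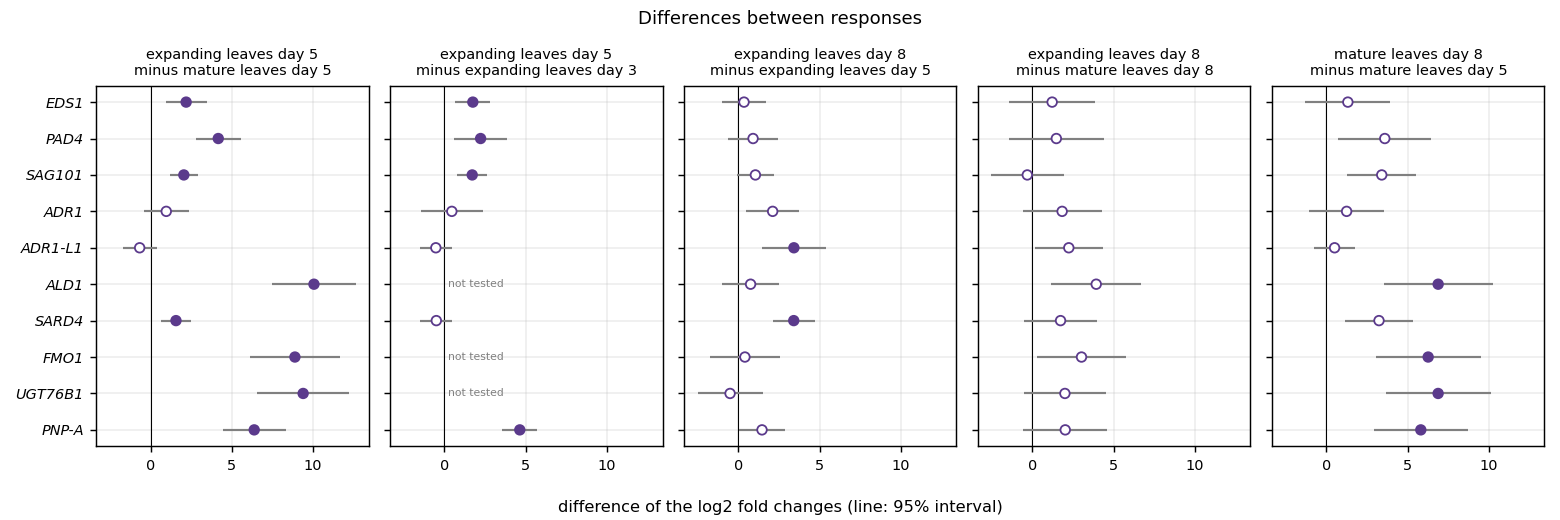
Difference between the log2 fold changes of 2 tables for each gene, with 95% intervals, filled where the adjusted p over all genes tested in both tables was under 0.05. Expanding minus mature leaves on day 5 was past the threshold for 8 genes and on day 8 for none.

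On day 8 no member differed between expanding and mature leaves by the same test, when 1.66% of 12956 genes had a larger response in expanding leaves and 4.29% a smaller one. At an unadjusted p under 0.05 there were 3 members and 2581 genes. ALD1 had a difference of 3.93 with a 95% interval of 1.17 to 6.70 (adjusted p = 0.081 from limma fits), so a sizeable difference remained possible. On day 3 none of 7 members differed between the leaf types, with 0% of 14238 genes larger or smaller in expanding leaves, and 2 members and 697 genes were at an unadjusted p under 0.05. Between roots and expanding leaves on day 3 none of 6 differed, with 0% of 13698 genes larger and 0.00730% smaller in roots, and 1 member and 727 genes were at an unadjusted p under 0.05. A single model over both tables also called none in these 3 comparisons.

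Within expanding leaves the response was larger on day 5 than on day 3 for 4 of the 7 members tested, as for 7.41% of 14568 genes. The differences were 4.64 for PNP-A (adjusted p = 4.5e-06), 2.23 for PAD4 (0.049), 1.75 for EDS1 (0.025) and 1.71 for SAG101 (0.011), from limma fits. That of PAD4 lost the threshold without any of 12 single libraries, with adjusted p up to 0.098. From day 5 to day 8 the response was larger for ADR1-L1 (3.42, adjusted p = 0.021) and SARD4 (3.41, adjusted p = 0.0015), 2 of 10, as for 13.2% of 14584 genes, again from limma fits. These were the members not called on day 5. Without Mg-deficient library 1 of day 5 the count was 4. SARD4 averaged 38.6 RPM on day 5 and 78.0 on day 8 in Mg-deficient leaves, and 20.6 and 5.57 in control leaves. ADR1-L1 averaged 42.5 and 130.5 RPM in Mg-deficient leaves, and 39.2 and 25.3 in control leaves. The differences of both genes thus hold a lower control level on day 8 as well as a higher Mg-deficient one. Within mature leaves the response was larger on day 8 than on day 5 for ALD1 (6.89, adjusted p = 0.018), UGT76B1 (6.89, 0.014), FMO1 (6.27, 0.026) and PNP-A (5.82, 0.02) in limma fits, 4 of 10, as for 2.08% of 12915 genes. Without Mg-deficient library 4 of day 8 that count was 1. The negative day 5 values of ALD1 (-2.66), UGT76B1 (-2.46) and FMO1 (-2.07), none called, add to their differences. ALD1 was not called on day 8 either (adjusted p = 0.06 by limma). The median over all genes in mature leaves was -0.02 on day 5 and 0.91 on day 8.

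The other genes of these pathways were counted from 6 lists with 59 genes. Of 6 relatives of the node genes, ADR1-L2 alone rose on day 5 in expanding leaves (log2 fold change 2.19 ± 0.33, adjusted p = 0.0012 by limma), and 4 rose on day 8. Of all genes tested in these leaves, 13.7% rose and 14.8% fell on day 5, and 30.8% rose on day 8. AT3G48080, the near copy of EDS1, had -0.91 ± 0.83 on day 5 (adjusted p = 0.42 by limma) and rose by 2.50 ± 0.85 on the log2 scale on day 8 (adjusted p = 0.029 by limma). None of 9 TIR-domain receptor genes rose or fell on day 5 in expanding leaves, where 8 were tested, with 4 at an unadjusted p under 0.05 and 2 called by voom. On day 8, 5 of the 9 rose, when 30.8% of all genes did.

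Of 9 genes of lysine supply and breakdown, 1 rose and 2 fell on day 5, when 13.7% of all genes rose and 14.8% fell. DHDPS2, a dihydrodipicolinate synthase, rose by 1.24 ± 0.23 on the log2 scale (adjusted p = 0.0033 by limma). AK3, an aspartate kinase gene, had a log2 fold change of -2.23 ± 0.58 (adjusted p = 0.017 by limma). AGD2, a homologue of ALD1 and an enzyme of lysine synthesis, had -0.46 ± 0.31 (adjusted p = 0.28 by limma). On day 8, 6 of the 9 rose and 1 fell, when 30.8% of all genes rose and 14.9% fell, with AK3 at -3.11 ± 0.38 (adjusted p = 3.7e-05 by limma) and DHDPS2 at 1.02 ± 0.27 (adjusted p = 0.0088 by limma).

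Of 17 genes of regulators, 10 rose and none fell on day 5 in expanding leaves, when 13.7% of all genes rose and 14.8% fell. The median was 1.74 over the 16 tested, against -0.34 over all genes. Those that rose included WRKY46 (5.81 ± 0.48, adjusted p = 2.8e-05 by limma) and WRKY18 (4.17 ± 0.42, adjusted p = 8.9e-05 by limma), which encode transcription factors. CBP60g, a transcription factor that acts on salicylic acid and pipecolic acid genes, rose by 5.51 ± 0.69 on the log2 scale (adjusted p = 0.00039 by limma), and the kinase gene MPK3 by 1.86 ± 0.23 (adjusted p = 0.00039 by limma). On day 8, 12 of the 17 rose and none fell, when 30.8% of all genes rose and 14.9% fell.

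All 6 genes tested of 9 in salicylic acid synthesis and turnover rose on day 5, with a median of 4.10, when 13.7% of all genes rose. PBS3, which conjugates isochorismate to glutamate, rose by 7.72 ± 0.54 on the log2 scale, ICS1, the isochorismate synthase, by 5.59 ± 0.56, and EDS5, its exporter from plastids, by 5.22 ± 0.65. UGT74F2, a glucosyltransferase of salicylic acid, rose by 2.91 ± 0.47 (adjusted p of these 4 between 8.8e-06 and 0.0016 by limma). Of 9 genes of defence output 7 rose and 1 fell, with a median of 3.26, when 13.7% of all genes rose and 14.8% fell. PR5 rose by 3.26 ± 0.28, PR2 by 3.58 ± 0.37, NIMIN1, an NPR1-binding protein gene, by 5.10 ± 0.72 and AZI1 by 3.89 ± 0.70 (adjusted p of these 4 between 3.6e-05 and 0.0028 by limma). The one that fell was ACD6 (-1.68 ± 0.34, adjusted p = 0.0053 by limma), named after its value was seen. On day 8, 6 of the 9 salicylic acid genes rose and none fell, and 6 of the 9 output genes rose and 1 fell. Of all genes tested on that day, 30.8% rose and 14.9% fell.

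Outside expanding leaves on days 5 and 8, few listed genes were called. In mature leaves on day 8, 3 of 9 salicylic acid genes, 3 of 9 output genes and 5 of 17 regulator genes rose, when 3.43% of all genes rose. There none of the lysine, relative or TIR-domain lists was called by limma or voom, with 1 gene of each at an unadjusted p under 0.05. In expanding leaves on day 3, 1 salicylic acid gene and 2 output genes rose, when 0.170% of all genes rose. Among them was PR2 (1.98 ± 0.29, adjusted p = 0.0025 by limma). In mature leaves on days 3 and 5 and in roots none of the 59 was called, by limma or by voom, and 0, 7 and 1 of them were at an unadjusted p under 0.05.

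**Figure D5:**
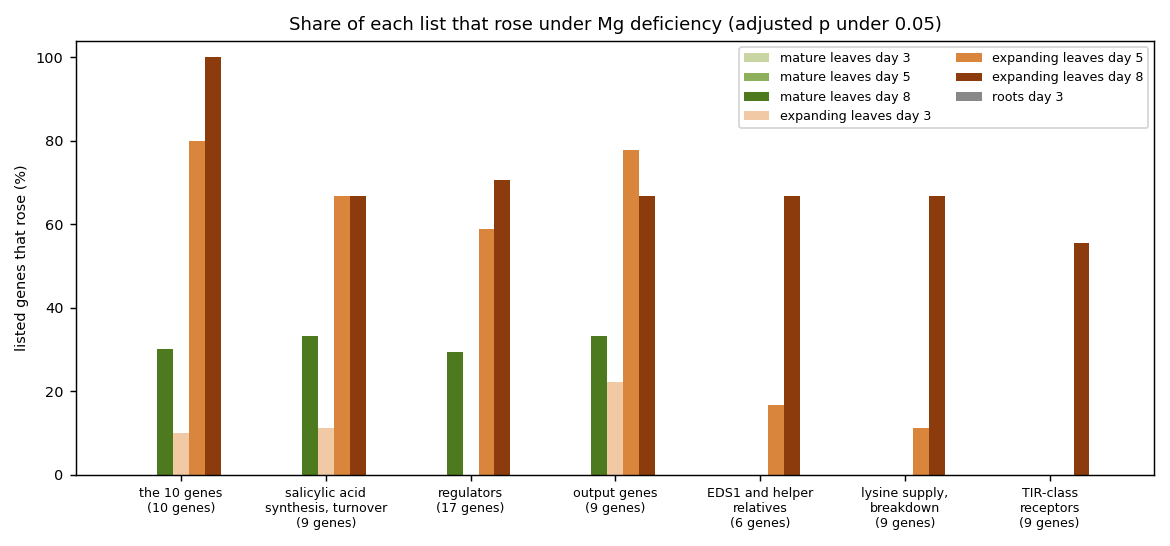
Share of each list's genes that rose at an adjusted p under 0.05 in each tissue and day, for the 10 genes described here and the 6 lists of related genes. On day 5 in expanding leaves 8 of the 10 rose and 6 of 9 genes of salicylic acid synthesis and turnover, against none of 9 TIR-domain receptor genes and 13.7% of all genes.

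Courses were compared across the 26 expanding-leaf libraries, taken as log2 signals less the control mean of the same day. Only genes above the filter on every day were ranked, 13810 of them for ALD1. Among these the nearest to ALD1 were CAM9, a calmodulin gene (Pearson r = 0.98), AT3G22600 (0.98) and AT3G01830 (0.97). PNP-A was at rank 8 with r = 0.97. UGT76B1 and FMO1 were below the filter on day 3 and were not among the ranked genes. Set against the ranked genes, their r of 0.97 each would take ranks 9 and 10. Other genes that, like ALD1, were below the filter on a day were not searched. EDS1, PAD4 and SAG101 had r of 0.88, 0.88 and 0.87 with ALD1, and ADR1, SARD4 and ADR1-L1 had 0.81, 0.78 and 0.60. For PAD4 the nearest were PLA2A, a phospholipase gene (0.96), BCS1 (0.95) and AT1G13470 (0.95), and of the members PNP-A (0.92, rank 34) and SAG101 (0.91, rank 60). These values are descriptions across libraries that share treatment groups and depth.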

How the data were processed

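RNA of mature leaves, expanding leaves and roots was sequenced strand-specifically, and the study mapped the reads to TAIR10 and normalised each tissue and day separately (R version 3.5.0 is in the submitters' processing notes). The aligner, the use of strand in counting and the treatment of reads with several matches were not given in the sources used here. Per the labels the deposited signal values are normalised counts, and their form was that of pseudo-counts, adjusted to equal library sizes (dispersion 0.05). Reversing the step returned whole reads, within a tolerance of 0.001, in 99.98% to 100% of the values. These recovered reads gave depth, floors and the voom alternative, in which 0 members were called in mature leaves on days 3 and 5 and in roots. The sum of reads per library is 545998 to 4015183, which limits low genes. The columns used were all those of the tables, with 0 other columns of per-sample values.

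A count test was planned only for raw counts. The signals are not raw counts, so limma 3.58.1 in R 4.3.3 (lmFit, eBayes with trend) was run on log2(signal + 1) within each of the 7 tables, over genes with a mean of at least 5, 2-sided, with Benjamini-Hochberg adjustment over the table. Differences between tables divided the difference of log2 fold changes by the root of their summed squared SEs, with Satterthwaite degrees of freedom and adjustment over all genes tested in both. Libraries of different tables were taken as independent. The exact permutation test of each member can give no p below 0.00794 to 0.0286, depending on the table.

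No table was found to hold 1 library deposited as 2 (lowest chi-square per degree of freedom 1.609). Replicate numbers did not pair libraries (correlations of same-numbered libraries -0.10 to 0.17). The alternatives were other pseudocounts (0.25 and 5), no filter or a mean of 20, median of ratios, array weights, each library left out, a replicate block, voom, no trend with no filter, a joint fit, control library 1 alone in mature leaves on day 8, and the study's unadjusted threshold of 0.01. The scripts were tested on simulated data.

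All 10 members are described in every table. Of each of 6 pathway lists, up to 4 genes with the smallest p on day 5 in expanding leaves were named. AT3G48080, ADR1-L2 and AGD2 were always named. So were the 3 genes with the course most like ALD1 and like PAD4, among genes above the filter on every day in expanding leaves. The values of 1 gene that the rule names are not reported here. The members, lists and rule were chosen with earlier results of these data known. Coordinates and windows are from RefSeq TAIR10.1, in which all 96 listed loci were found. Python 3.11.15 with numpy 2.4.6, pandas 2.3.3, scipy 1.17.1 and matplotlib 3.10.9 did the rest.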

Additional observations from a re-analysis of the deposited data

Results flagged for a closer look

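Within the groups of 4 to 6 libraries, 11 member signals stood farther from the rest of their group than Dixon's 95% critical value allows. There were 88 such groups, and chance alone flags about 1 in 20. In mature leaves on day 8, control library 1 was the high one for PAD4 (22.8), ALD1 (14.6) and PNP-A (15.3). In mature leaves on day 3 ADR1 was high in control library 1 (26.8) and UGT76B1 in control library 2 (26.8). In expanding leaves on day 3 FMO1 was high in Mg-deficient library 1 (8.71), and PNP-A in control library 2 (58.6). SAG101 was high in control library 4 on day 5 (45.5), EDS1 in control library 4 on day 8 (64.9) and FMO1 in control library 2 on day 8 (13.6), all in expanding leaves. ADR1 was high in control library 6 of roots (33.2).

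The response to Mg deficiency differed between tissues or days in 18 tests at an adjusted p under 0.05. Expanding minus mature leaves on day 5 gave log2 differences of 2.20 for EDS1, 4.17 for PAD4, 2.05 for SAG101, 10.07 for ALD1, 1.57 for SARD4, 8.90 for FMO1, 9.41 for UGT76B1 and 6.39 for PNP-A. Day 5 minus day 3 in expanding leaves gave 1.75 for EDS1, 2.23 for PAD4, 1.71 for SAG101 and 4.64 for PNP-A. Day 8 minus day 5 gave 3.42 for ADR1-L1 and 3.41 for SARD4 in expanding leaves, and 6.89 for ALD1, 6.27 for FMO1, 6.89 for UGT76B1 and 5.82 for PNP-A in mature leaves. Neither the libraries nor the markers that moved with these values were tested for their part in them.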

How the results depend on the processing

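The count was 10 in expanding leaves on day 8 under every alternative, and 7 to 9 on day 5, where ADR1 was the call lost and SARD4 the one gained. In mature leaves on day 8 the count of 3 became 1 with a filter at a mean of 20, 5 with voom and 5 at an unadjusted p under 0.01. Of all genes, 197 rose with that filter and 382 with voom, against 457 in the main fit. A fit against control library 1 alone leaves 1 library in that arm. Its log2 fold changes were 4.2 for FMO1 and 4.43 for UGT76B1, as with all controls, and 2.96 for PNP-A, against 5.72 with all controls. No control library held a read of FMO1 or UGT76B1, so their values could not change. FMO1 was lost with a pseudocount of 5, no filter and array weights, and UGT76B1 with a pseudocount of 5 and array weights. Leaving out 1 library gave 0 to 6, when 56 to 1700 of all genes rose. In expanding leaves on day 3 the count of 1 became 0 with no trend and no filter, 2 with array weights and 3 at an unadjusted p under 0.01, and leaving out 1 library gave 0 to 1.

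The 8 differences between leaf types on day 5 became 5 with a filter at a mean of 20. On day 8 none became 3 with a pseudocount of 5, 1 with median of ratios and 1 with array weights, and 0 to 1 without single libraries. The 4 differences between days 5 and 3 in expanding leaves became 7 with no filter, and 3 without PAD4 in the joint fit (adjusted p = 0.1), with a pseudocount of 0.25 (0.097) or with a filter at a mean of 20 (0.052). That of SARD4 between leaf types on day 5 was lost without Mg-deficient library 3 of mature leaves. The 2 between days 8 and 5 became 1 with the joint fit and 2 to 4 without single libraries, and the 4 in mature leaves became 1 with a filter at a mean of 20, 1 with the joint fit and 1 to 6 without single libraries. A filter at a mean of 20 tests fewer members. The other causes were not tested.

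The replicate numbers did not pair libraries. With the replicate block the count in mature leaves on day 8 became 5 and that in expanding leaves on day 5 became 7, with ADR1 at an adjusted p of 0.13. SARD4 on day 5 in expanding leaves was called with a pseudocount of 5 (adjusted p = 0.048), a filter at a mean of 20 (0.044), voom (0.028), and without control library 1 (0.048).

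No called fold change turned its sign. Among fold changes that were not called, ADR1 in mature leaves on day 3 became 0.27 with array weights, and with the replicate block ADR1-L1 became -0.11, SARD4 -0.14 and PNP-A -0.14 there. On day 5 in mature leaves SAG101 became 0.01 with voom and PNP-A 1.1 with the block. SAG101 in expanding leaves on day 3 became -0.0072 with array weights, ADR1-L1 on day 5 -0.0045 with median of ratios, and PAD4 in roots -0.058 with array weights. Without single libraries, mature leaves on day 3 gave PAD4 -0.26 to 1.15, SAG101 -0.11 to 0.65, ADR1 -0.98 to 0.48, ADR1-L1 -0.29 to 0.45, SARD4 -0.14 to 0.26 and PNP-A -0.14 to 1.33. Those of day 5 gave EDS1 -0.16 to 0.47, PAD4 -0.43 to 0.18, SAG101 -0.16 to 0.12 and PNP-A -1.02 to 0.45. ADR1-L1 in expanding leaves on day 5 gave -0.29 to 0.53 and PAD4 in roots -0.075 to 0.34.

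Median of ratios moved the median of all genes in mature leaves on day 8 by -0.49, with 233 genes up and 41 down in place of 457 and 23. Low depth in the controls of that table limits what can be said of its zero counts.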
